A study of Talpa occidentalis with 24 samples.

Results

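The ovarian part of the mole ovotestis was compared with the mole testis by the chromatin state of each 200 bp bin of the genome. Scaffolds 15 and 18 of the talOcc4 assembly were set aside by rule, which left 9956704 of 10493388 bins (1991 of 2099 Mb, on 4452 scaffolds). Positions along the genome were described on the 16 large scaffolds, numbered 1 to 14, 16 and 17, which held 9580688 bins (1916 Mb). Both tissues came from wild-type Iberian moles, Talpa occidentalis, on postnatal day 7. Females of this species carry ovotestes, in which an ovarian and a testicular part lie in the same gonad, and the testis is the gonad of the male. Fixed tissue was sheared and immunoprecipitated for the histone modifications H3K4me3, H3K4me1, H3K27ac and H3K27me3, with 2 replicates per mark, so that 8 libraries stood behind each tissue. The labels do not say how many animals went into a library or whether tissue was pooled.

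The deposited data held 1 segmentation per tissue, in which the authors had assigned 1 of 7 states to every bin. Both replicates were already merged there, and the read depth behind a call is unknown. No difference below therefore has a replicate check or a test, and each value is a description of these 2 segmentations. The 8 libraries of the testicular part had been merged in the same way, and its state is given where it adds to the comparison. The segmentations carry no gene names, so the tissue labels were not checked against marker genes. In whole tissue, a mark carried by fewer cells and a mark carried at a lower level per cell cannot be told apart.

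Chromatin states summarise combinations of histone marks. H3K4me3 lies at promoters, H3K4me1 at active and poised enhancers, and H3K27ac is added where promoters and enhancers are active. H3K27me3 is deposited by Polycomb repressive complex 2 and is found over silenced developmental genes, and bivalent promoters carry it together with H3K4me3. In the mouse, Polycomb proteins are known to take part in sex determination of the gonad. How the authors tied each of their state names to the marks, and what their gap state covers, is not stated in the sources used here.

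The ovarian part carried less of the Polycomb and active enhancer states than the testis and more of the promoter state. Polycomb repression covered 99.4 Mb in the ovarian part, against 158 Mb in the testis, or 4.99% against 7.94% of bins, a ratio of 0.628. This direction held with scaffolds 15 and 18 set aside; with both put back, Polycomb coverage was 0.0488 percentage points higher in the ovarian part. The testicular part had 96.6 Mb of Polycomb, or 4.85%, so it too lay below the testis. Active enhancers covered 73.5 Mb in the ovarian part, against 108.9 Mb in the testis, or 3.69% against 5.47%, and 5.12% in the testicular part. Promoters went in the opposite direction, with 13.2 Mb in the ovarian part, against 11.4 Mb in the testis, or 0.664% against 0.575%, and 0.587% in the testicular part. Bivalent promoters covered 14.1 Mb in the ovarian part, against 15.3 Mb in the testis. Poised enhancers covered 462 Mb in the ovarian part, against 430.2 Mb in the testis, a ratio of 1.07, and the undefined state covered 1195 Mb and 1130.1 Mb in the same order.

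In all, 2665316 bins, or 26.8%, were in another state in the ovarian part than in the testis. On the 16 large scaffolds the share was 27.0% (2585131 bins). The states differed widely in how much of them was common to both tissues. The overlap was taken as the Jaccard index, the bins in a state in both tissues over the bins in it in either. It was 0.344 for Polycomb, 0.369 for active enhancers, 0.397 for poised enhancers, 0.615 for bivalent promoters and 0.625 for promoters. Of ovarian promoter bins, 71.7% were promoter in the testis, and of testis promoter bins 82.9% were promoter in the ovarian part. For Polycomb and active enhancers the larger share was that of the ovarian bins. Of ovarian Polycomb bins, 66.4% were Polycomb in the testis, whereas 41.7% of testis Polycomb bins were Polycomb in the ovarian part. Active enhancers gave 66.9% of the ovarian bins and 45.2% of the testis bins. Thus 33.4 Mb were Polycomb in the ovarian part and not in the testis, against 92.2 Mb the other way round, and 24.3 Mb were active enhancer in the ovarian part alone, against 59.7 Mb in the testis alone.

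**Figure D1:**
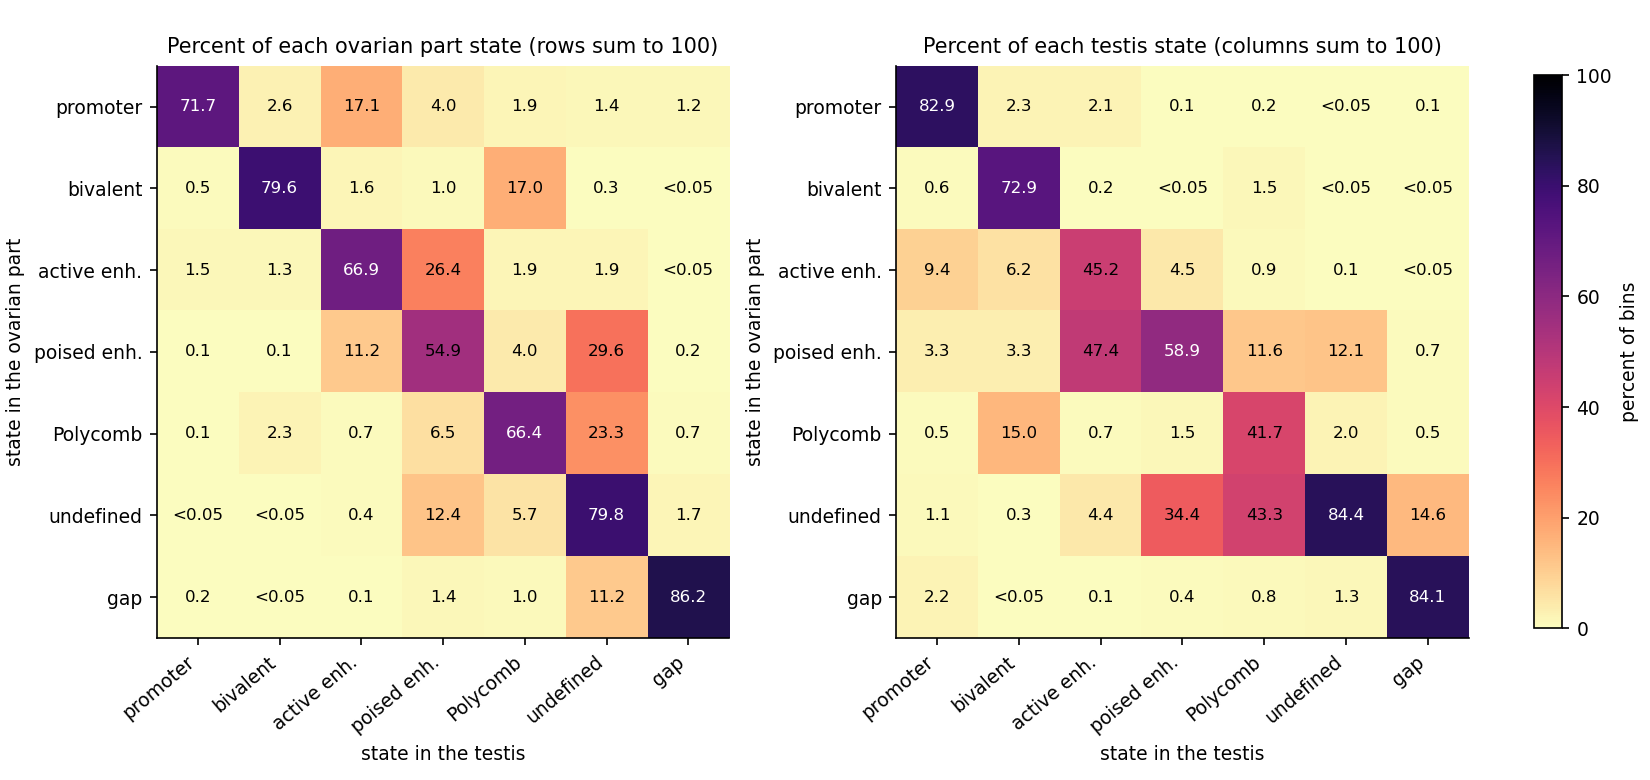
State of each 200 bp bin in the ovarian part (rows) and in the testis (columns), scaffolds 15 and 18 set aside. The left panel gives the percent of bins of each ovarian state and the right panel the percent of bins of each testis state; the colour scale runs over the same percentages. Testis active enhancers lay most often in ovarian poised enhancer (47.4%), and testis Polycomb most often in ovarian undefined chromatin (43.3%).

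Most of the changed bins lay outside the promoter, bivalent promoter, active enhancer and Polycomb states, but so did most of the genome. In the testis, undefined chromatin covered 56.8% of bins, poised enhancer 21.6% and gap 6.89%. Of these testis bins, 84.4%, 58.9% and 84.1% in the same order had the same state in the ovarian part. The shares were lower for Polycomb (41.7%) and active enhancer (45.2%), and were 72.9% for bivalent promoter and 82.9% for promoter. Exchange among poised enhancer, undefined and gap made up 60.6% of the changed bins, and the exchange of poised enhancer with undefined chromatin alone made up 53.5%. That exchange was close to even, with 136.9 Mb poised in the ovarian part and undefined in the testis, against 148.1 Mb undefined in the ovarian part and poised in the testis. The heat map of transitions shows where the named regulatory states went instead.

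The enhancer exchange was uneven. Bins that were active enhancer in the ovarian part and poised in the testis came to 19.4 Mb, against 51.6 Mb that were poised in the ovarian part and active in the testis. Where one tissue had an active enhancer and the other did not, the bin was therefore usually still marked as an enhancer in the other tissue. Of ovarian active enhancer bins, 26.4% were poised in the testis and 1.94% undefined. Of testis active enhancer bins, 47.4% were poised in the ovarian part and 4.40% undefined.

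Polycomb was exchanged mainly with undefined chromatin. Bins that were Polycomb in the ovarian part and undefined in the testis came to 23.1 Mb, against 68.6 Mb undefined in the ovarian part and Polycomb in the testis. Poised enhancers took part as well, with 18.3 Mb poised in the ovarian part and Polycomb in the testis, against 6.48 Mb Polycomb in the ovarian part and poised in the testis. Of ovarian Polycomb bins, 6.52% were poised enhancer in the testis, while 11.6% of testis Polycomb bins were poised in the ovarian part. Direct switches between Polycomb and active enhancer were rare, at 1.41 Mb active in the ovarian part and Polycomb in the testis, against 0.710 Mb Polycomb in the ovarian part and active in the testis.

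Promoter bins of the ovarian part that lacked the promoter state in the testis were mostly active enhancer there, at 17.1% of all ovarian promoter bins. Another 3.995% were poised enhancer, 2.64% bivalent and 1.88% Polycomb in the testis. The switch between promoter and bivalent promoter was small but one-sided. It covered 0.349 Mb that were promoter in the ovarian part and bivalent in the testis, against 0.0664 Mb bivalent in the ovarian part and promoter in the testis. The exchange of promoter with Polycomb leaned the same way, with 0.248 Mb promoter in the ovarian part and Polycomb in the testis, against 0.0552 Mb in the opposite arrangement. Together, 2.96 Mb were active (promoter or active enhancer) in the ovarian part and Polycomb or bivalent in the testis, against 1.06 Mb Polycomb or bivalent in the ovarian part and active in the testis.

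Bivalent promoters exchanged mainly with Polycomb, in nearly equal amounts. Bins that were bivalent in the ovarian part and Polycomb in the testis came to 2.38 Mb, against 2.31 Mb Polycomb in the ovarian part and bivalent in the testis. This was 16.95% of ovarian and 15.04% of testis bivalent bins. The lower bivalent coverage of the ovarian part lay mainly in the exchange with enhancers. There, 0.229 Mb were bivalent in the ovarian part and active enhancer in the testis, against 0.946 Mb active enhancer in the ovarian part and bivalent in the testis. With poised enhancers the amounts were 0.138 Mb bivalent in the ovarian part, against 0.501 Mb bivalent in the testis.

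**Figure D2:**
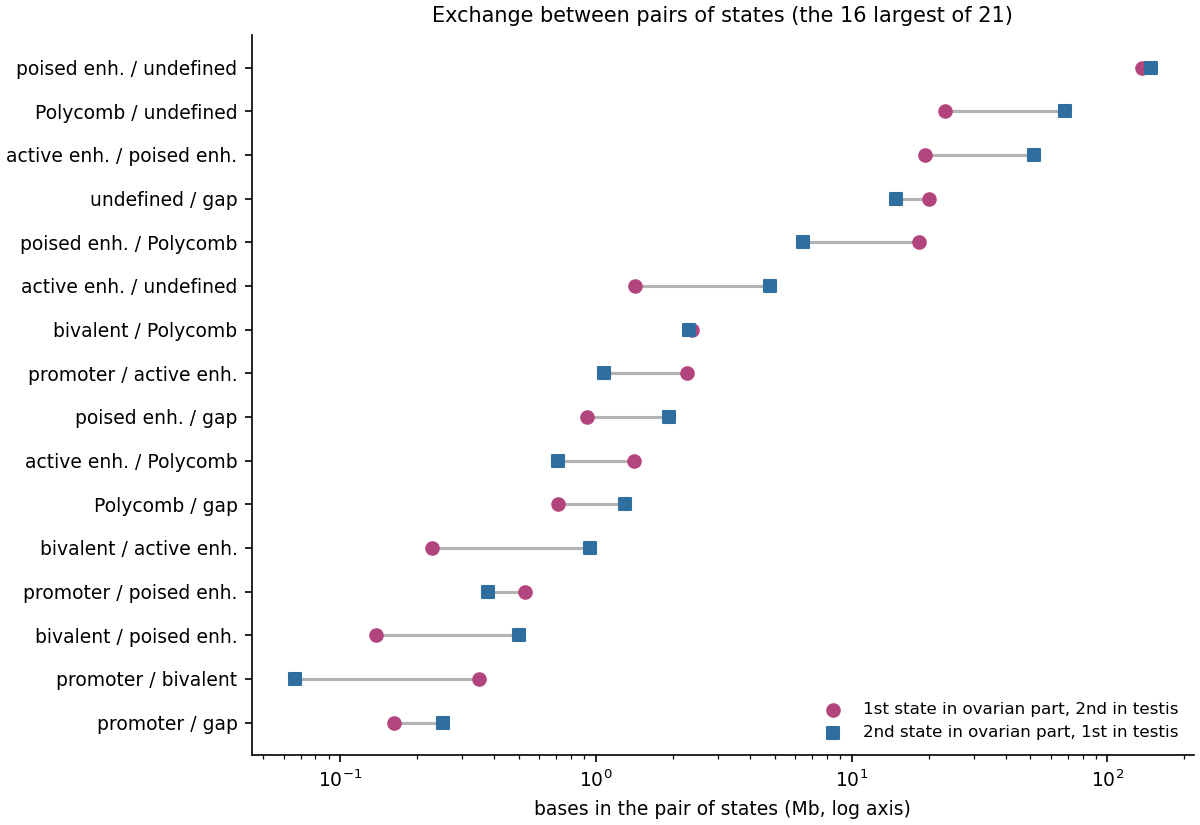
Megabases exchanged within the 16 largest of the 21 pairs of states, on a log axis. Circles stand for the first state in the ovarian part and the second in the testis, and squares for the second in the ovarian part and the first in the testis. Polycomb with undefined, and active with poised enhancer, have their squares to the right, at 68.6 and 51.6 Mb; poised enhancer with Polycomb has its circle to the right, at 18.3 Mb.

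The testicular part shared the sex and the gonad of the ovarian part, and its state at the changed bins depended on the kind of change. Over all changed bins it was in the ovarian state in 44.9% and in the testis state in 49.3%. Where Polycomb was found in the ovarian part and not in the testis, the testicular part was Polycomb in 20.1% and in the testis state in 66.8%. Where Polycomb was found in the testis alone, the testicular part was Polycomb in 27.8% and in the ovarian state in 59.7%. Polycomb seen in either compared tissue alone was therefore mostly absent from the testicular part. It was still more frequent there than over all bins, of which 4.85% were Polycomb in the testicular part. The testicular part was undefined, its commonest state, in 60.7% of the ovarian-only and 59.7% of the testis-only Polycomb bins. For active chromatin the shares lay closer together. Of bins active in the ovarian part alone, the testicular part had 35.4% in the ovarian state and 52.2% in the testis state. Of bins active in the testis alone, it had 45.5% in each.

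Segments, the unbroken stretches of a state, differed in number and length. The active enhancer state had 61116 segments in the ovarian part, against 64847 in the testis. Its lower coverage went mostly with a lower mean segment length. The mean was 1202 bp in the ovarian part, against 1679 bp in the testis, with medians of 800 and 1200 bp in the same order. This was not a shortening of shared segments alone. Segments without any active enhancer bin in the other tissue held 15.2 Mb in the ovarian part, against 31.7 Mb in the testis. Active enhancer segments of at least 10 kb numbered 77 in the ovarian part, against 331 in the testis, and the longest were 23200 and 56400 bp. Polycomb differed in number as well as length, with 34355 segments in the ovarian part, against 46364 in the testis, and medians of 1800 and 2200 bp. Polycomb segments of at least 10 kb held 23.7 Mb in the ovarian part (1538 segments) and 42.9 Mb in the testis (2779 segments). Promoter segments had the same median, 600 bp, and numbered 19785 in the ovarian part, against 16637 in the testis. Of the unshared promoter bins, 1.69 Mb in the ovarian part, against 1.14 Mb in the testis, lay in segments found in both tissues, so the higher promoter coverage of the ovarian part came with both more segments and longer shared ones.

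The same contrast appeared among segments that overlapped exactly 1 segment of the same state in the other tissue. Of 34414 such active enhancer pairs, 25.5% were longer in the ovarian part, against 59.0% longer in the testis, and the mean difference was -394 bp, ovarian part minus testis. Of 17917 Polycomb pairs, 25.2% were longer in the ovarian part, against 50.5% longer in the testis, with a mean difference of -775 bp. Promoter pairs leaned the other way, with 34.0% of 13968 longer in the ovarian part, against 20.3% longer in the testis. Poised enhancers were nearly balanced, with 47.5% of 82796 pairs longer in the ovarian part, against 43.4% longer in the testis. Among paired segments, active enhancers and Polycomb domains were thus more often the shorter in the ovarian part, and promoters more often the longer.

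Unshared bins were next divided into those of segments with no bin of that state in the other tissue and those at the edges or gaps of a segment found in both. For Polycomb, 60.6% of unshared ovarian bins and 64.3% of unshared testis bins lay in segments missing altogether from the other tissue. For active enhancers the shares were 62.7% in the ovarian part, against 53.0% in the testis, and for promoters 54.7% and 42.0% in the same order. By segments, 26.0% of ovarian and 48.5% of testis Polycomb segments had no Polycomb bin in the other tissue. For active enhancers it was 31.1% of ovarian and 39.5% of testis segments, and for promoters 24.8% of ovarian and 11.3% of testis segments.

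The share without a counterpart varied with length. Of promoter segments of a single bin, 55.8% of ovarian and 28.6% of testis segments were missing from the other tissue. Long active enhancer and bivalent segments nearly all had at least 1 bin of the same state in the other tissue, a measure that long segments meet more easily. Of active enhancer segments of at least 10 kb, 0 of 77 in the ovarian part and 4 of 331 in the testis had no active enhancer bin in the other tissue. By bases, 86.1% of those ovarian segments were active enhancer in the testis, and 58.8% of those testis segments were active enhancer in the ovarian part. Bivalent segments of at least 10 kb gave 0 of 74 in the ovarian part and 0 of 91 in the testis. Polycomb did not follow this pattern as closely, since 237 of 1538 segments of at least 10 kb in the ovarian part (15.4%) and 515 of 2779 in the testis (18.5%) had no counterpart. Between 1 and 4.8 kb, more than 50% of testis Polycomb segments were missing from the ovarian part, at 59.6% for 1 to 1.8 kb and 53.4% for 2 to 4.8 kb, while the ovarian segments of those lengths were at 28.6% and 23.7%.

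**Figure D3:**
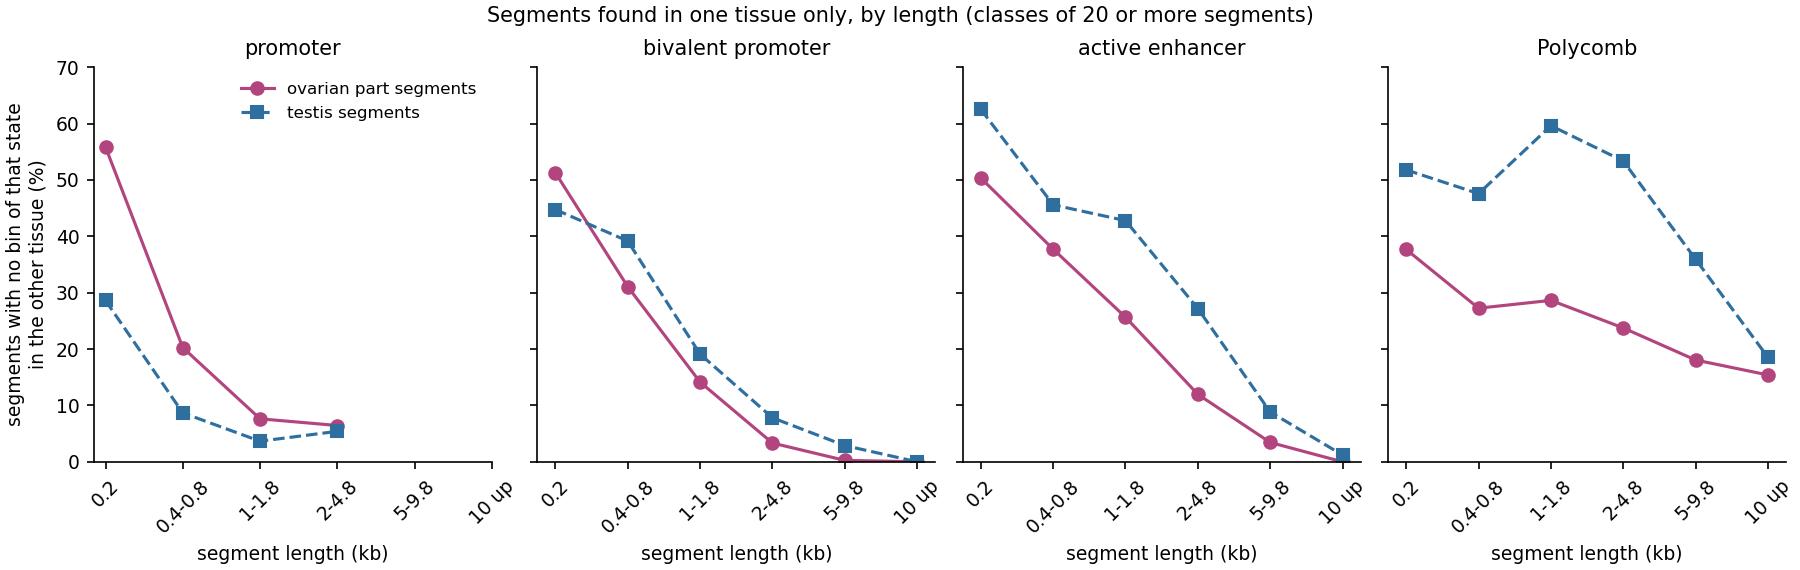
Percent of segments with no bin of the same state in the other tissue, by segment length in kb, for 4 states. Circles with solid lines are segments of the ovarian part and squares with dashed lines segments of the testis; length classes of fewer than 20 segments are not drawn. Active enhancer and bivalent segments of at least 10 kb are at or near 0, whereas Polycomb segments of that length are at 15.4% in the ovarian part, against 18.5% in the testis.

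Taken over whole scaffolds, the promoter, active enhancer and Polycomb differences each had the same direction on all 16 large scaffolds. Within scaffolds the direction varied, as the windows below show. On 16 of the 16 large scaffolds the ovarian part had more promoter state than the testis, with ratios of 1.09 on scaffold 4 to 1.27 on scaffold 17. Active enhancer coverage was lower in the ovarian part on all 16, with ratios of 0.578 on scaffold 1 to 0.780 on scaffold 17. Polycomb coverage was also lower on all 16, and its ratio ran from 0.501 on scaffold 17 to 0.802 on scaffold 9. Bivalent coverage was lower in the ovarian part on 14 and higher on 2, scaffolds 12 and 14, of which scaffold 14 had the largest ratio, 1.08. Scaffold 17 stood at one end for most states. Its Polycomb coverage was 6.50% in the ovarian part, against 13.0% in the testis, its poised enhancer coverage 25.7% and 20.9% in the same order, and it had the largest share of changed bins, 31.2%, where scaffold 6 had the smallest, 23.4%.

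**Figure D4:**
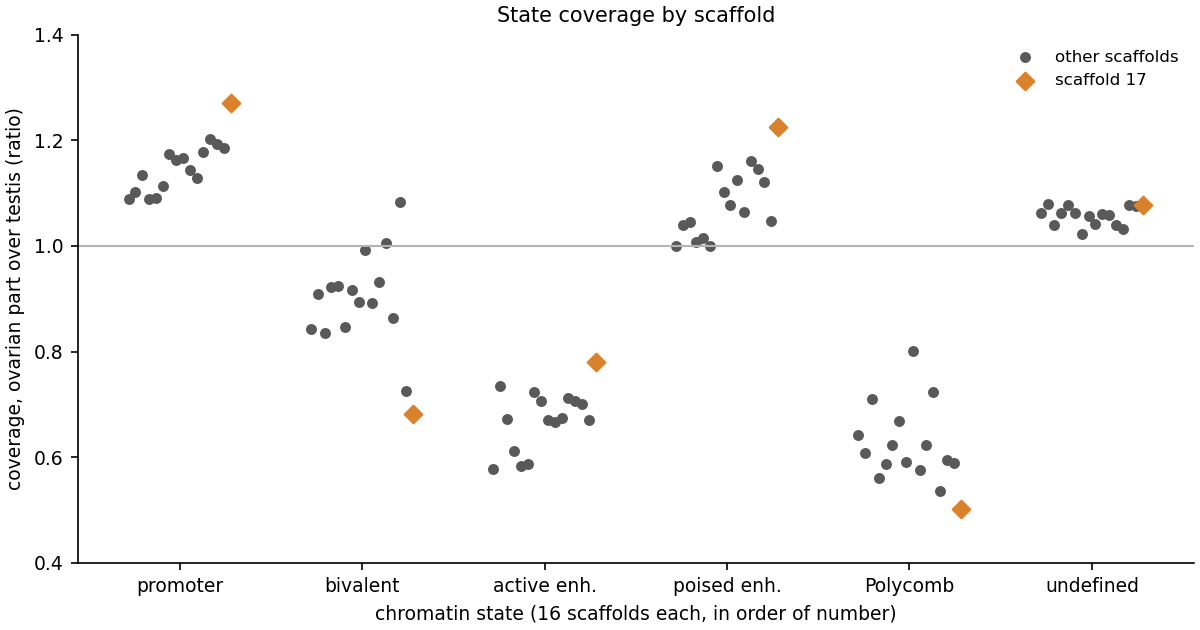
Ratio of coverage, ovarian part over testis, for 6 states on each of the 16 large scaffolds, with the scaffolds in order of number within a state. Diamonds are scaffold 17 and circles the other scaffolds; the line marks a ratio of 1. Promoter ratios run from 1.09 to 1.27, whereas all active enhancer and Polycomb ratios lie below 1, the lowest Polycomb ratio (0.501) being that of scaffold 17.

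Changed bins lay next to each other more than independent bins would. On the large scaffolds they formed 427505 unbroken runs with a mean of 1209 bp, where independent bins at the same frequency would give a mean of 274 bp. Runs of at least 1 kb held 79.9% of the changed bins and runs of at least 10 kb held 5.41%. Bins 0.2 kb from a changed bin were changed 3.09 times as often as bins in general, those 1 kb away 2.01 times, those 10 kb away 1.21 times and those 1 Mb away 1.05 times. Since most segments are longer than a bin, runs longer than those of independent bins follow in part from the segments themselves. Neighbours within a few kb often belong to the same segment, and bins 10 kb apart can. Undefined segments of at least 10 kb held 50.7% of undefined bases in the ovarian part, against 55.9% in the testis. The values at larger distances thus say more about where changes gather.

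Clustering differed between the kinds of change. Polycomb segments of at least 10 kb held 23.9% of Polycomb bases in the ovarian part, against 27.1% in the testis. The longest were 70400 and 81400 bp in the same order. Polycomb bins 10 kb apart can thus lie in 1 segment, whereas those 100 kb apart cannot. At 10 kb, bins Polycomb in the ovarian part alone were found 11.8 times as often as over all bins, and bins Polycomb in the testis alone 4.23 times. At 100 kb the values were 3.93 and 2.39 in the same order, but at 1 Mb they were 1.25 and 1.48. These ratios depend on how common a group is, and Polycomb of the ovarian part alone took up 1.67% of bins, against 4.61% for that of the testis alone. Without that division, 19.8% of bins at 10 kb belonged to the same group for the ovarian part, against 19.5% for the testis, and at 100 kb 6.55% against 11.01%. Active bins gave about 2.0 at 100 kb in both directions. Bivalent bins gave 29.0 in the ovarian part alone and 23.6 in the testis alone at 100 kb. Bivalent chromatin was itself concentrated in a few places, as described below. Since the division is by frequency over all bins, no ratio here separates the clustering of a change from that of its state. Promoter bins, which were also rare, gave 2.05 in the ovarian part alone and 4.17 in the testis alone at 100 kb. Without the division, 0.382% and 0.412% of bins at 100 kb belonged to the same group, in the same order. At 1 Mb the ratios were 1.64 in the ovarian part alone and 0.644 in the testis alone.

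**Figure D5:**
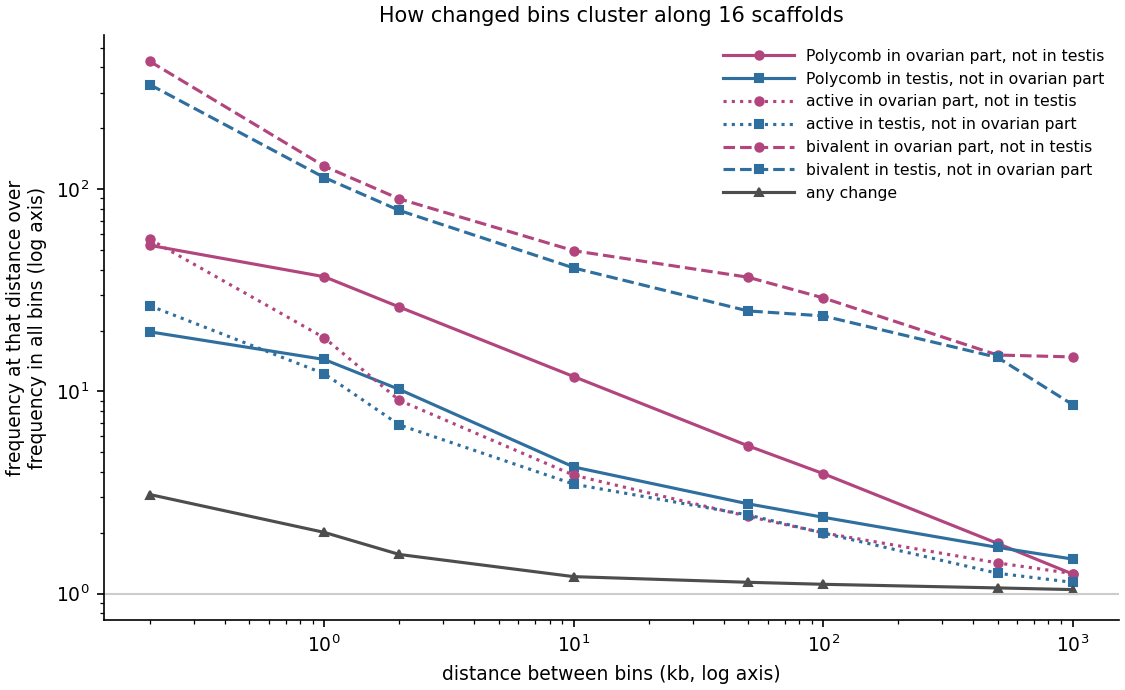
How often bins at a given distance from a bin of a group belong to the same group, divided by the group's frequency over all bins of the 16 large scaffolds, on log axes with distance in kb. Circles are bins in a state in the ovarian part and not in the testis, squares the reverse and triangles any change; the line at 1 marks no clustering. At 100 kb, Polycomb of the ovarian part alone is at 3.93 and Polycomb of the testis alone at 2.39, while any change is at 1.11.

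Counted in windows of 100 kb, changes of state were spread widely but unevenly. Among 18823 windows with less than 50% gap state in each tissue, the median window had 26.8% of its bins changed, 10% of windows had less than 10.8% and 10% had more than 43.0%. Over all 19153 windows, whatever their gap state, the densest 33.0% held 50% of all changed bins, and the shares that follow are over the same windows. For Polycomb of the ovarian part alone, 4.02% of windows held 50% of the bins, against 9.28% for Polycomb of the testis alone. For active bins the shares were 9.63% in the ovarian part alone and 10.9% in the testis alone. For bivalent bins they were 0.778% and 1.23% in the same order. A rarer group can fill fewer windows, so these shares do not rank the groups by clustering. Polycomb of the ovarian part alone had 159988 bins, against 441443 for that of the testis alone. Bivalent bins numbered 12779 in the ovarian part alone and 18936 in the testis alone.

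Polycomb coverage was lower in the ovarian part in 9512 of the 18823 windows and higher in 2966. It was at least 10 percentage points lower in 2428 windows (12.9%) and at least 10 points higher in 537 (2.85%). Active coverage was at least 10 points lower in the ovarian part in 1239 windows (6.58%) and at least 10 points higher in 147 (0.781%). Windows with large Polycomb differences often adjoined. The longest series with Polycomb at least 10 points lower in the ovarian part was 16 windows on scaffold 17, from 2300201 to 3900200, and the longest with Polycomb at least 10 points higher was 10 windows on scaffold 12, from 87700201 to 88700200. These series were picked after their values were seen.

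The windows with the largest Polycomb differences had different surroundings in each direction. In 552 windows Polycomb was at least 25 points lower in the ovarian part. They averaged 12.5% Polycomb in the ovarian part (testicular part 22.2%), against 48.4% in the testis, and poised enhancer there was 22.7% in the ovarian part, against 11.3% in the testis. Active coverage in these windows was 4.25% in the ovarian part, against 2.74% in the testis, opposite to its direction over the genome. In 143 windows Polycomb was at least 25 points higher in the ovarian part, with 49.4% in the ovarian part (testicular part 10.1%), against 11.2% in the testis. There active coverage was 1.24% in the ovarian part (testicular part 3.57%), against 4.55% in the testis. Since states exclude each other within a bin, a bin that is Polycomb in one tissue cannot be active there, so these coverages are not independent measures.

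The 5 windows of 100 kb with the largest share of changed bins illustrate these kinds of change. They were chosen on that share, so their values describe them only. On scaffold 3, from 24100201 to 24200200, 90.4% of bins were changed, and Polycomb covered 88.8% in the ovarian part (testicular part 16%), against 12.2% in the testis. In the testis the window was mainly poised (55.2%) and active enhancer (19.8%). On scaffold 17, from 5000201 to 5100200, 87.0% were changed, with Polycomb at 0% in the ovarian part (testicular part 27.6%), against 75.4% in the testis. On scaffold 4, from 133800201 to 133900200, 85.4% were changed, with Polycomb at 56.2% in the ovarian part, against 0% in the testis, and active enhancer at 2.2% and 25.2% in the same order. The other two windows concerned other states. On scaffold 2, from 35000201 to 35100200, bivalent promoter covered 3.2% in the ovarian part (testicular part 36.4%), against 64.6% in the testis. On scaffold 10, from 40400201 to 40500200, active enhancer covered 7.0% in the ovarian part (testicular part 30.6%), against 62.6% in the testis.

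At a coarser scale, 1886 windows of 1 Mb were compared, and Polycomb was lower in the ovarian part in 1524 of them and higher in 348. The difference ran from -38.3 to 22.4 percentage points with a median of -1.78. The windows at these ends were again picked on their values. On scaffold 17, from 3000201 to 4000200, Polycomb covered 5.02% in the ovarian part (testicular part 8.86%), against 43.3% in the testis. In place of it the ovarian part carried poised enhancer (31.7%, against 12.6% in the testis) and undefined chromatin (57.1%, against 38.9%). The adjoining window starting at 2000201 was also among the 5 with the lowest difference. So was the window starting at 5000201, which did not adjoin, while the window between was not. The excess of testis Polycomb on this scaffold thus lay partly near its start. At the other end, on scaffold 9, from 37000201 to 38000200, Polycomb covered 26.0% in the ovarian part (testicular part 2.68%), against 3.62% in the testis.

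Testis Polycomb was denser within 10 Mb of the scaffold ends than beyond 20 Mb from them. From 2 to 5 Mb from an end, Polycomb covered 7.29% in the ovarian part, against 14.6% in the testis, whereas beyond 20 Mb it covered 4.26% and 6.49% in the same order. The share of changed bins was 20.7% in the outermost 1 Mb, 32.0% from 2 to 5 Mb and 25.7% beyond 20 Mb. Polycomb in the outermost 1 Mb covered 7.94% in the ovarian part, against 10.965% in the testis. There the gap state covered the most, with 47.0% in the ovarian part, against 49.3% in the testis. This division by distance from the end, like that by promoters below, was made after other values had been seen.

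Bivalent chromatin was concentrated in a few places. Among 1886 windows of 1 Mb with less than 50% gap state in each tissue, 40 had at least 5% bivalent coverage on average over both tissues. These 40 windows held 44.4% of ovarian and 41.7% of testis bivalent bins of the large scaffolds. The largest block of such windows lay on scaffold 2, from 30000201 to 42000200. There bivalent promoter covered 19.9% in the ovarian part (testicular part 22.3%), against 20.5% in the testis. The Jaccard index of bivalent bins was 0.566 in the block and 0.586 outside the 40 windows, and 39.2% of all bins of the block were changed. The block held 21.2% of the bivalent bins that changed on the large scaffolds, close to its 19.9% of ovarian and 18.6% of testis bivalent bins. Polycomb covered 18.7% of it in the ovarian part (testicular part 32.9%), against 28.9% in the testis.

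The other windows with at least 5% bivalent coverage together had 10.5% in the ovarian part, against 10.9% in the testis. Their ratio was 0.964, where the largest block had 0.969, and their Jaccard index was 0.656. Some were nearly equal, such as scaffold 8 from 20000201 to 21000200, with 7.88% in the ovarian part, against 7.84% in the testis. Some single blocks differed more, in either direction. On scaffold 14, from 23000201 to 26000200, bivalent promoter covered 20.3% in the ovarian part (testicular part 9.58%), against 15.4% in the testis, and active enhancer covered 7.29% in the ovarian part (testicular part 1.92%), against 0.847% in the testis. This was a block where bivalent, active and promoter coverage were all higher in the ovarian part, while Polycomb was lower, at 32.4% in the ovarian part, against 47.7% in the testis. On scaffold 2, from 2000201 to 4000200, bivalent promoter was instead lower in the ovarian part, at 8.11%, against 14.3% in the testis. Outside the 40 windows, bivalent coverage was 0.355% in the ovarian part, against 0.411% in the testis.

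Promoters common to both tissues served as fixed points for the remaining bins, since no gene annotation of this assembly was used. From 0.2 to 2 kb from the nearest shared promoter bin, 36.03% of bins were changed. At any such distance, a bin that is promoter in either tissue is changed by definition. Ovarian promoter made up 5.98% of this nearest class and testis promoter 3.22%, so its share cannot be compared with those farther out. From 2 to 10 kb, where such bins were rare, 32.9% of bins were changed. The share then decreased to 29.9% from 10 to 50 kb, 28.8% from 50 to 200 kb and 21.7% beyond. Undefined chromatin became more common over the same distances, from 46.1% to 77.0% of ovarian bins. Enhancer bins were more often shared near shared promoters, where they were also more common, than far from them. From 0.2 to 2 kb, 81.3% of ovarian and 64.5% of testis active enhancer bins were active enhancer in the other tissue, and beyond 200 kb 51.1% and 32.2% were. Poised enhancers did likewise, with 62.6% of ovarian and 75.9% of testis bins shared in the nearest class and 46.1% and 50.2% beyond 200 kb. The median distance to a shared promoter was 54.8 kb for bins active in the ovarian part alone and 51.0 kb for bins active in the testis alone.

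In ratio, bivalent and Polycomb coverage differed most between the tissues near shared promoters. From 0.2 to 2 kb, bivalent promoter covered 0.674% of bins in the ovarian part, against 1.58% in the testis, a ratio of 0.426, and this ratio was 0.771, 0.897, 0.947 and 0.968 in the following distance classes. Polycomb in the nearest class was 2.38% in the ovarian part, against 5.18% in the testis, and its ratio was 0.459 there and 0.683 beyond 200 kb. The flanks of promoters used in both tissues thus carried less bivalent and Polycomb chromatin in the ovarian part. Bins Polycomb in the ovarian part alone lay at a median of 162 kb from a shared promoter, and bins Polycomb in the testis alone at 109.6 kb. The median was 106.4 kb for bins Polycomb in both tissues and 112.0 kb over all bins. The testis-only value was thus close to that of the genome in general.

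Single regions were named as the 3 longest unbroken runs in each of 8 classes of change, and their values describe a choice made on those changes. Among runs Polycomb in the ovarian part and in any other state but gap in the testis, the longest lay on scaffold 12, from 30799201 to 30849200 (50 kb). It was undefined over its whole length in the testis, while the testicular part had 86.4% undefined and 10.8% Polycomb. The next were on scaffold 7, from 129106801 to 129149200 (42.4 kb), and scaffold 9, from 92232801 to 92273600 (40.8 kb), which the testicular part had as undefined in 78.3% and 98.5%. None of these 3 was thus mainly Polycomb in the testicular part.

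Among runs Polycomb in the testis alone, the longest lay on scaffold 2, from 144015801 to 144055800 (40 kb). In the ovarian part it was 70% undefined and 29% poised enhancer, and the testicular part had 4.5% Polycomb. On scaffold 14, from 83408001 to 83445400 (37.4 kb), the ovarian part was 70.1% undefined, and the testicular part was Polycomb over 59.9%. On scaffold 17, from 2977401 to 3013600 (36.2 kb), the ovarian part was 94.5% undefined and the testicular part had 2.76% Polycomb. In the ovarian part all 3 runs were mainly undefined.

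Runs that passed directly between Polycomb and active states were much shorter. There were 1017 runs Polycomb in the ovarian part and active in the testis (0.748 Mb), and 2799 active in the ovarian part and Polycomb in the testis (1.54 Mb). The longest with Polycomb in the ovarian part lay on scaffold 3, from 106322601 to 106328000 (5.4 kb), where the testis was active enhancer throughout and the testicular part was 22.2% active enhancer, 40.7% poised and 37.0% undefined. Next came scaffold 1, from 21487401 to 21492600, and scaffold 5, from 24314401 to 24319400. The longest active in the ovarian part and Polycomb in the testis lay on scaffold 12, from 73794201 to 73799800 (5.6 kb), which was active enhancer throughout in the ovarian part. The second, on scaffold 13, from 97413801 to 97418000 (4.2 kb), was 28.6% promoter and 71.4% active enhancer in the ovarian part, and 95.2% poised in the testicular part. The third lay on scaffold 12, from 15877201 to 15881000. The testicular part was in the poised enhancer state over some of each of these 6 runs.

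Among runs active in the ovarian part and poised or undefined in the testis, the longest was also on scaffold 13, from 97434001 to 97442800 (8.8 kb). It began shortly after the end of the run of that scaffold named above. It was 75% poised and 25% undefined in the testis, and the testicular part was active over 63.6%. Scaffold 5, from 136455201 to 136463000, followed, and then scaffold 8, from 76433201 to 76440600, which was not active at any bin in the testicular part. In the reverse direction, poised or undefined in the ovarian part and active in the testis, runs reached 12.6 kb on scaffold 6, from 111678201 to 111690800, and 11 kb on the same scaffold, from 90222801 to 90233800. The testicular part was active over 50.8% of the first and 1.82% of the second. The third, on scaffold 8, from 102341201 to 102352000, included promoter bins in the testis (9.26%) and was 40.7% poised and 59.3% undefined in the ovarian part; another run had the same length.

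Switches between promoter and bivalent promoter gave 856 runs that were promoter in the ovarian part and bivalent in the testis, and 154 that were bivalent in the ovarian part and promoter in the testis. The longest of the first kind was 4.0 kb, on scaffold 7, from 15278401 to 15282400, and 85.0% of it was bivalent in the testicular part. On scaffold 13, from 40170201 to 40173200, the testicular part was instead 86.7% promoter, and on scaffold 8, from 8635401 to 8638000, it was 92.3% bivalent. The longest of the second kind were 2 runs of 2.0 kb on scaffold 2, from 32426201 to 32428200 and from 32694401 to 32696400. Both lay within the large bivalent block of that scaffold. The third was on scaffold 3, from 80221801 to 80223600, and was promoter throughout in the testicular part.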

How the data were processed

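Chromatin of both parts of the ovotestis and of the testis was immunoprecipitated for 4 histone marks. STAR 2.6.1d and the mouse genome mm9 appear in the submitters' processing notes. The tool and depth behind the mole segmentations are not stated in the sources used here. The values in the deposited tables are state names, 1 per segment, on talOcc4, made by the authors from all marks and both replicates of a tissue. Segments were cut into bins of 200 bp and compared bin by bin with Python 3.11.15, numpy 2.4.6 and pandas 2.3.3, after the functions had been tested on simulated data. Positions count from 1. Windows with at least 50% gap state in either tissue were left out, except from the shares of windows holding 50% of bins. The comparison, the classes and the lists were chosen with earlier results of these data known. Gene models lie on other assemblies, so no gene was named and no sequence is shown. With 1 segmentation per tissue, no test was run. Alternatives were set against a 95% interval of each value, binomial for shares and a normal approximation for differences and the ratio. These intervals treat bins as independent, or windows in the case of the share of windows.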

Additional observations from a re-analysis of the deposited data

How the results depend on the processing

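Of 46 values recomputed under other settings, 12 stayed within the interval of the reported value, 33 moved outside it and 1 turned its direction. The intervals are narrow because bins and windows are many and were treated as independent. With scaffolds 15 and 18 put back, the difference in Polycomb coverage, ovarian part minus testis, turned to 0.0488 points, against -2.95 as reported. The same setting gave 29.2% changed bins, differences of 0.0816 points for promoter, -0.0803 for bivalent promoter, -1.72 for active enhancer and 1.37 for poised enhancer, 82.0% of changed bins in runs of at least 1 kb, a ratio of 1.34 at 10 kb, 30.3% of windows holding 50% of changed bins, and 63.8% of testis-only Polycomb bins in whole segments. With only the 16 large scaffolds, 27.0% of bins changed and active enhancer differed by -1.82 points. With gap bins left out, 26.8% of bins changed, and the differences were 0.102 points for promoter, -0.0704 for bivalent promoter, -1.93 for active enhancer, 1.798 for poised enhancer and -3.17 for Polycomb. Runs of at least 1 kb then held 83.2%, the ratio was 1.24, 31.6% of windows held 50% of changed bins and whole segments held 64.7%. With single-bin segments absorbed into their neighbours, 26.7% of bins changed, active enhancer differed by -1.797 points, runs of at least 1 kb held 81.1%, the ratio was 1.22 and whole segments held 63.4%. Windows of 40 and 500 kb gave 29.7% and 37.0% of windows, runs bridging 1 unchanged bin gave 82.3%, and distances of 1 and 100 kb gave ratios of 2.01 and 1.11. Leaving out scaffold 17 as well gave -2.84 points for Polycomb, and leaving out the bivalent block of scaffold 2 gave -2.91; both were chosen after the data had been seen. The causes of these shifts were not tested. No paired analysis was possible because each tissue has 1 segmentation, and the unknown depth limits how firmly a missing state can be read.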
